A study of Mus musculus with 15 samples.

Results

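The genes described here encode the molecules that vascular endothelium displays to circulating leukocytes. They comprised 7 adhesion genes (Sele, Selp, Vcam1, Icam1, Icam2, Madcam1 and Ackr1) and 2 genes of endothelial content (Pecam1 and Cdh5), chosen by name from the 55487 genes listed. All 9 were found, and all 9 passed the filter on low counts, as did 19006 genes in all. Gene expression was profiled by bulk RNA-Seq in mouse conjunctival tissue, in 15 libraries that fall into 3 groups of 5. All mice were wild-type (WT) females, 9 to 12 weeks of age, of the strain that the labels spell BALC/c (BALB/c in the methods). The ear skin of every mouse was sensitized with ovalbumin (OVA) and MC903, a vitamin D analog that evokes atopic dermatitis–like inflammation, given daily at 2.5 nmol for 7 days. Mice were then challenged through eye drops on days 18 to 24. The PBS group was challenged with PBS, and its labels give the antibody as N/A. The isotype group was challenged with OVA and received a control antibody, and the anti–IL-4Rα group was challenged with OVA and received an antibody to the shared receptor chain of IL-4 and IL-13, at 25 mg/kg. The challenge and the antibody therefore both differ between the PBS group and either OVA group, and their parts in a difference from PBS cannot be told apart.

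Leukocytes leave the blood in steps. Endothelial selectins catch fast-flowing cells and let them roll, chemokines held on the vessel wall then activate their integrins, and the activated integrins bind VCAM-1, ICAM-1 and ICAM-2 before the cells pass through the junctions that PECAM-1 and VE-cadherin hold together. TNF and IL-1 are classical inducers of E-selectin, VCAM-1 and ICAM-1, and IL-4 and IL-13 are known as inducers of VCAM-1 on endothelium. VCAM-1 binds the integrin α4β1 that eosinophils, basophils and lymphocytes carry, and is therefore often named in allergic inflammation of the eye.

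Among the adhesion genes the selectins Sele and Selp were higher after OVA challenge with isotype than after PBS and lower with anti–IL-4Rα than with isotype. Vcam1, Icam2, Madcam1 and Ackr1 passed the threshold in none of the 3 comparisons in edgeR's quasi-likelihood test. Icam1 was higher than in the PBS group in every library of both OVA groups, with edgeR adjusted p-values on either side of the threshold (0.0521 with isotype and 0.0444 with anti–IL-4Rα). The latter call was lost in 10 of 13 alternative analyses, and the former was gained in 4 of 13. Of the endothelial content genes, Pecam1 was called higher in the isotype than in the PBS group, a call lost in 7 of 11 alternatives, and Cdh5 did not pass the test. In bulk tissue fewer endothelial cells and less RNA per cell cannot be told apart.

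Promoter sequence from RefSeq (GRCm38.p6) was used for 5 of the 9 genes (Sele, Selp, Icam1, Madcam1 and Ackr1), and those of Vcam1, Icam2, Pecam1 and Cdh5 were not analysed here. Those of the 3 genes that differed between groups are given here, 250 bases up to the base before the RefSeq start, 5′ to 3′ on the strand of the gene. Sele lies at chr1:164047984-164048233, Selp at chr1:164115014-164115263 and Icam1 at chr9:21015690-21015939, all on the plus strand. Capitals mark matches to GGNNNTTCC, a form of the NF-κB binding site, read on both strands.
Sele: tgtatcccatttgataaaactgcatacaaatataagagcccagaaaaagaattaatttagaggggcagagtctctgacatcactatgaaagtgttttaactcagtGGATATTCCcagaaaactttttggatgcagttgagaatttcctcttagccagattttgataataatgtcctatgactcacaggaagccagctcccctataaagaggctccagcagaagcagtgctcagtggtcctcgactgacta
Selp: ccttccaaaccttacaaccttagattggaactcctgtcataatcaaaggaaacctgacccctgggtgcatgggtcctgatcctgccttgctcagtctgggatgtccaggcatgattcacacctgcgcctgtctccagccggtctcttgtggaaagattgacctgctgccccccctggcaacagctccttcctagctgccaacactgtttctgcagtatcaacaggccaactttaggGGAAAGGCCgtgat
Icam1: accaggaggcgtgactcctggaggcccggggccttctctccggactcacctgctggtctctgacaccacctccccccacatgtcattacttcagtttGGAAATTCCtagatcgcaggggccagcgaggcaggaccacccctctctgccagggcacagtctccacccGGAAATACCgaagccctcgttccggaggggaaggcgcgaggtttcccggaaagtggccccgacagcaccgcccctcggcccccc
The match GGATATTCC stood 145 to 137 bases before the start of Sele, and GGAAAGGCC stood 14 to 6 bases before that of Selp. Icam1 had GGAAATTCC at 153 to 145 bases and GGAAATACC at 84 to 76 bases. All 5 of the promoters at hand held a match, among 15.7% of 32851 promoter windows of the same length. An AP-1 motif, TGANTCA, stood in the Sele window as TGACTCA, 73 to 67 bases before the start, and in the Selp window as TGATTCA, 139 to 133 bases before it, against 6.75% of windows. No match overlapped another. The STAT6 motif, TTC and GAA with 4 bases of any kind between them, present in 5.85% of windows, was in none of the 5. These matches describe letters in these windows, and no binding was measured.

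Sele encodes E-selectin, which inflamed endothelium makes to catch rolling neutrophils, eosinophils and memory T cells. The gene (ENSMUSG00000026582) lies on chromosome 1 at 164048234 to 164057677 in GRCm38. Its level, in CPM (counts scaled to a common library total), was 2.16, 1.90, 0.991, 1.47 and 1.35 in PBS replicates 1 to 5. In isotype replicates 1 to 5 it was 2.66, 6.99, 4.73, 3.48 and 5.25 CPM. In anti–IL-4Rα replicates 1 to 5 it was 1.32, 1.88, 2.78, 2.08 and 2.55 CPM. All 5 isotype libraries lay above every PBS library, with replicate 2 the highest and replicate 1 the lowest of them, and 4 of the 5 anti–IL-4Rα libraries lay below every isotype library. Group means were 1.57 ± 0.460, 4.62 ± 1.67 and 2.12 ± 0.575 CPM (PBS, isotype and anti–IL-4Rα, SD, n = 5 each). Sele was thus 2.93-fold higher in the isotype group than in the PBS group (95% interval 1.94 to 4.43, log2 1.55 ± 0.28 SE), with an adjusted p of 0.00381 in edgeR's two-sided quasi-likelihood test. Against isotype, it was 54.1% lower with anti–IL-4Rα (log2 -1.12 ± 0.27, edgeR adjusted p = 0.0207).

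Selp encodes P-selectin, which endothelium stores in Weibel-Palade bodies and platelets store in granules, and which binds PSGL-1 on leukocytes. The gene (ENSMUSG00000026580) lies on chromosome 1 at 164115264 to 164150026. Selp stood at 4.26, 6.14, 6.56, 5.51 and 4.97 CPM in PBS replicates 1 to 5. Isotype replicates 1 to 5 held 8.05, 15.6, 12.8, 8.79 and 12.3 CPM. Anti–IL-4Rα replicates 1 to 5 held 6.33, 4.84, 6.53, 6.37 and 5.36 CPM. The isotype libraries overlapped neither other group, and the anti–IL-4Rα libraries lay within the PBS range. Group means were 5.49 ± 0.916, 11.5 ± 3.10 and 5.89 ± 0.745 CPM (SD, n = 5 each). Selp was 2.10-fold higher in the isotype than in the PBS group (95% interval 1.62 to 2.72, log2 1.07 ± 0.17 SE, edgeR adjusted p = 0.00233) and 49.0% lower with anti–IL-4Rα than with isotype (log2 -0.97 ± 0.17, edgeR adjusted p = 0.00594). Between anti–IL-4Rα and PBS the log2 difference was 0.10, with a 95% interval of -0.27 to 0.47 (edgeR adjusted p = 0.786), and that of Sele was 0.43, with an interval of -0.17 to 1.02 (edgeR adjusted p = 0.382). The 3 comparisons share groups, so the rise against PBS and the fall against isotype rest in part on the same 5 isotype libraries.

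**Figure D1:**
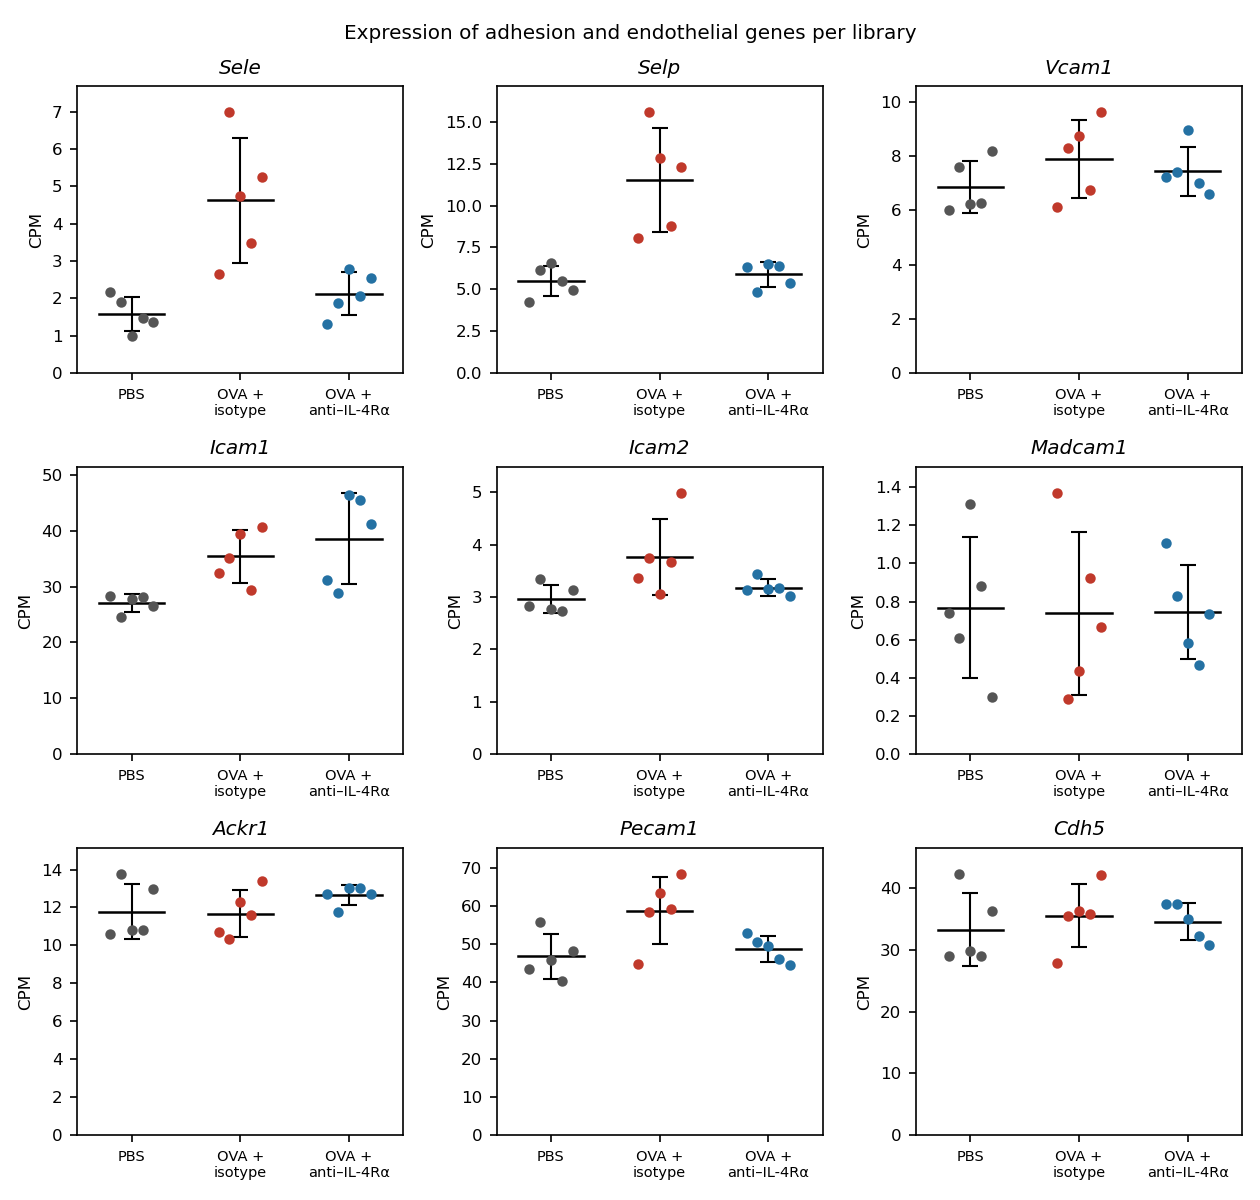
CPM (vertical axes, linear, from 0) of the 7 adhesion genes and of Pecam1 and Cdh5 in each library, by group (horizontal axes), with replicates 1 to 5 from left to right within a group. Points are libraries, long bars are means and error bars are SD (n = 5); the isotype libraries of Sele and Selp lie above all PBS libraries, while those of Vcam1, Madcam1 and Ackr1 overlap them.

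Vcam1 (ENSMUSG00000027962, chromosome 3, 116109949 to 116129688) encodes the immunoglobulin-family ligand of α4 integrins. It stood at 6.02, 7.60, 6.23, 6.29 and 8.17 CPM in PBS replicates 1 to 5, at 6.13, 8.31, 8.74, 6.74 and 9.62 CPM in isotype replicates 1 to 5, and at 7.24, 7.40, 8.98, 7.02 and 6.59 CPM in anti–IL-4Rα replicates 1 to 5. The 3 groups overlapped, with means of 6.86 ± 0.962, 7.91 ± 1.44 and 7.44 ± 0.909 CPM (SD, n = 5 each). The isotype to PBS difference was 0.21 on the log2 scale, with a 95% interval of -0.08 to 0.49 (edgeR adjusted p = 0.301), so that a rise above 1.40-fold lies outside the interval. Against isotype, anti–IL-4Rα gave -0.09, with an interval of -0.37 to 0.20 (edgeR adjusted p = 0.672). Vcam1 and the selectins were not tested against each other.

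Icam1 (ENSMUSG00000037405, chromosome 9, 21015985 to 21028817) encodes the ligand of the β2 integrins LFA-1 and Mac-1, and it is made by endothelium and also by leukocytes, fibroblasts and epithelium. PBS replicates 1 to 5 held 28.3, 24.6, 27.7, 28.1 and 26.5 CPM. Isotype replicates 1 to 5 held 32.4, 35.2, 39.5, 29.4 and 40.7 CPM. Anti–IL-4Rα replicates 1 to 5 held 31.1, 28.9, 46.4, 45.5 and 41.2 CPM. Every library of both OVA groups lay above every PBS library, and within the anti–IL-4Rα group replicates 1 and 2 stood well below the other 3, which lay above every isotype library. Means were 27.0 ± 1.54, 35.4 ± 4.72 and 38.6 ± 8.15 CPM (SD, n = 5 each). Against PBS, anti–IL-4Rα gave a 1.43-fold higher level (log2 0.51 ± 0.13 SE, edgeR adjusted p = 0.0444), and isotype a log2 difference of 0.39 ± 0.13 that did not pass (edgeR adjusted p = 0.0521). Neither is firm: with 1 library left out the first was lost in 9 of 15 fits and the second was gained in 5 of 15. Icam1 was not called lower under the antibody: the difference of anti–IL-4Rα from isotype was 0.12, with a 95% interval of -0.15 to 0.40 (edgeR adjusted p = 0.522).

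Icam2, Madcam1 and Ackr1 complete the set. Icam2 (ENSMUSG00000001029, chromosome 11, 106377656 to 106388075) encodes the ligand of LFA-1 that resting endothelium carries. It stood at 2.83, 3.34, 2.76, 2.73 and 3.13 CPM in PBS replicates 1 to 5, at 3.37, 3.75, 3.06, 3.67 and 4.98 in isotype replicates 1 to 5 and at 3.13, 3.44, 3.15, 3.16 and 3.02 in anti–IL-4Rα replicates 1 to 5. In the isotype group 4 of 5 libraries were above all PBS libraries, and the log2 difference was 0.35 ± 0.12 (edgeR adjusted p = 0.0528). The anti–IL-4Rα libraries spread over a narrow range and gave -0.24 ± 0.12 against isotype (edgeR adjusted p = 0.159). Madcam1 (ENSMUSG00000020310, chromosome 10, 79664559 to 79668537) encodes the addressin of gut venules, which binds α4β7. Its levels overlapped in the 3 groups, at 0.768 ± 0.371, 0.737 ± 0.428 and 0.744 ± 0.246 CPM, or 17 to 74 counts per library. Its isotype to PBS interval on the log2 scale, -0.98 to 0.82, is too wide to place it, and its libraries had a coefficient of variation of 48.3% in the PBS and 58.0% in the isotype group.

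Ackr1 (ENSMUSG00000037872, chromosome 1, 173331886 to 173333750) encodes the atypical chemokine receptor of venular endothelium and red cells, which carries chemokines across the vessel wall. PBS replicates 1 to 5 held 10.6, 13.8, 10.8, 10.8 and 12.95 CPM, isotype replicates 10.7, 10.4, 12.3, 11.6 and 13.4 CPM, and anti–IL-4Rα replicates 12.7, 11.7, 13.01, 13.04 and 12.7 CPM. The groups overlapped and the anti–IL-4Rα libraries were the closest together. The isotype to PBS difference was -0.01 on the log2 scale, with a 95% interval of -0.20 to 0.17 (edgeR adjusted p = 0.929), the narrowest interval among the 7. The 5 red cell markers did not pass the test in any comparison.

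Read as counts of members, 2 of the 7 adhesion genes were called higher and 0 lower in the isotype group against PBS, beside 17.0% of all 19006 genes called in either direction and 9.53% called higher. With so few members the share of 2 in 7 is too imprecise to read as a difference from the background. The median log2 difference was 0.35 over the 7 genes and -0.01 over all genes tested. Libraries did not overlap, with isotype higher, for 3 of the 7 (Sele, Selp and Icam1), beside 6.85% of all genes. Between anti–IL-4Rα and isotype 2 of the 7 were called lower and 0 higher, beside 14.9% called in either direction and 8.13% lower, and the medians were -0.09 for the 7 and 0.01 for all genes. Only Selp of the 7 had no overlap in that direction, beside 4.96% of all genes. Between anti–IL-4Rα and PBS 1 of the 7, Icam1, was called, higher and without overlap, beside 3.74% called in either direction, 2.29% called higher and 2.98% of genes without overlap in that direction. Taking each gene alone, the exact permutation test on log2 CPM of the 2 groups compared (two-sided, 27 tests, not adjusted, smallest p it can give 0.00794) gave 0.00794 for Sele, Selp and Icam1 and 0.0317 for Icam2 in isotype against PBS. In anti–IL-4Rα against isotype this exact test gave 0.0159 for Sele and 0.00794 for Selp, and in anti–IL-4Rα against PBS it gave 0.00794 for Icam1.

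**Figure D2:**
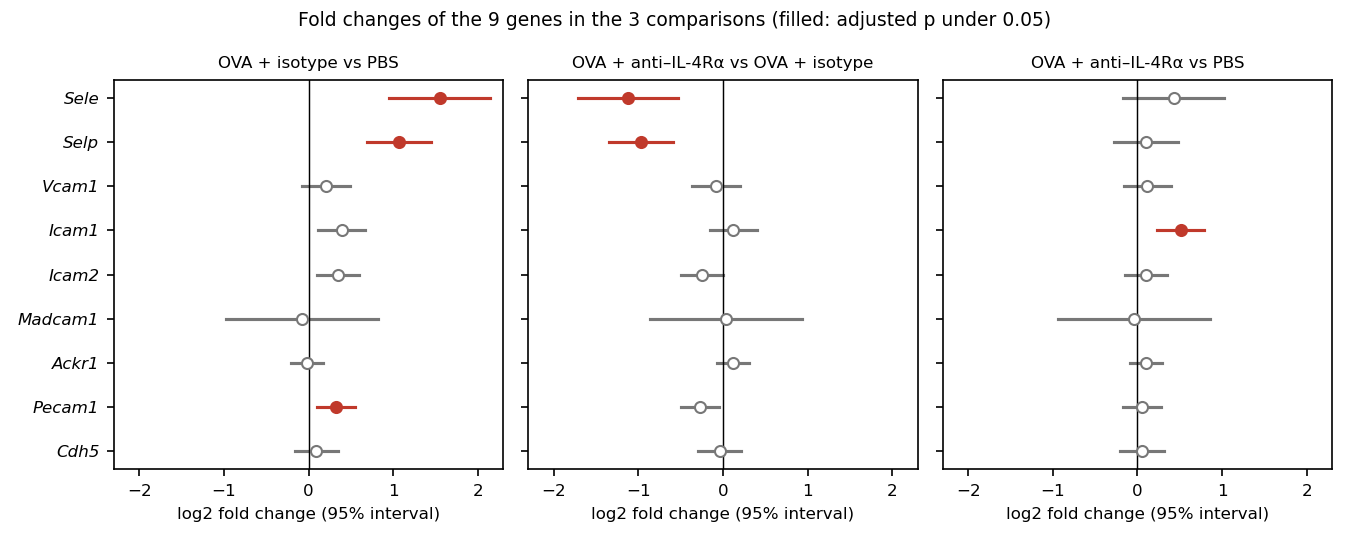
Log2 fold changes (horizontal axes) with 95% intervals from edgeR for the 9 genes in the 3 comparisons. Filled symbols have an adjusted p under 0.05: Sele, Selp and Pecam1 in isotype against PBS, Sele and Selp in anti–IL-4Rα against isotype, and Icam1 in anti–IL-4Rα against PBS.

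Pecam1 and Cdh5 stand for endothelial content. Pecam1 (ENSMUSG00000020717, chromosome 11, 106654217 to 106750628) encodes CD31, found at endothelial junctions and also on platelets, monocytes and neutrophils. It stood at 43.5, 55.9, 45.9, 40.5 and 48.3 CPM in PBS replicates 1 to 5, at 44.7, 58.4, 63.5, 59.2 and 68.4 CPM in isotype replicates 1 to 5 and at 53.1, 50.5, 49.5, 46.3 and 44.5 CPM in anti–IL-4Rα replicates 1 to 5. Isotype replicate 1 fell within the PBS range and the other 4 lay above it, a log2 difference of 0.33 ± 0.10 (edgeR adjusted p = 0.0440) whose call was lost in 11 of 15 fits with 1 library left out. Cdh5 (ENSMUSG00000031871, chromosome 8, 104101625 to 104144511) encodes VE-cadherin, which is more strictly endothelial. Its libraries ranged over 29.0 to 42.3 CPM in the PBS, 27.9 to 42.2 CPM in the isotype and 30.8 to 37.5 CPM in the anti–IL-4Rα group, and all 3 groups overlapped. Its means were 33.3 ± 5.87, 35.6 ± 5.10 and 34.6 ± 3.01 CPM (SD, n = 5 each), and the isotype to PBS difference was 0.09 on the log2 scale (edgeR adjusted p = 0.627). The 2 genes did not keep a fixed ratio: Pecam1 made up 56.9 to 60.6% of their summed CPM in the PBS libraries, 61.6 to 63.6% in the isotype libraries and 57.5 to 59.1% in the anti–IL-4Rα libraries.

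A list of 15 other pan-endothelial markers was also read. Of the 15, 1 was called higher in isotype against PBS (Sox18, an endothelial transcription factor, log2 0.41 ± 0.12, edgeR adjusted p = 0.0341), none was called in the other 2 comparisons, and the list median was -0.02 in each of the 3. Their summed level was 257 to 335 CPM in the PBS, 264 to 315 CPM in the isotype and 246 to 308 CPM in the anti–IL-4Rα libraries. Lymphatic endothelial markers, 7 in number, passed in no case against PBS, and Reln was higher with anti–IL-4Rα than with isotype (log2 0.66 ± 0.14). Among all genes, 9.53% were called higher in isotype against PBS, and 14.9% in either direction in anti–IL-4Rα against isotype.

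The selectin differences from PBS held when set against endothelial content. As a percentage of the summed CPM of Pecam1 and Cdh5, Sele was 1.31 to 2.97% in the PBS, 3.66 to 7.44% in the isotype and 1.46 to 3.39% in the anti–IL-4Rα libraries. Selp was 5.87 to 8.66%, 9.25 to 16.6% and 5.50 to 8.12% in the same groups. For both genes the isotype libraries then overlapped neither other group. In a fit with this sum as the reference the median of all genes moved to -0.24 on the log2 scale in isotype against PBS, and Sele stood at 1.29 ± 0.27 (edgeR adjusted p = 0.00587) and Selp at 0.82 ± 0.17 (edgeR adjusted p = 0.00585). With the pan-endothelial markers as the reference the values were 1.54 for Sele and 1.07 for Selp (edgeR adjusted p = 0.00458 and 0.00229). In anti–IL-4Rα against isotype Selp kept its call under both references (-0.78 and -0.93, edgeR adjusted p = 0.0298 and 0.0139), while Sele did not (-0.91 and -1.07, edgeR adjusted p = 0.0707 and 0.0516).

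The other members overlapped between groups on that scale. Vcam1 was 7.74 to 9.67%, 7.10 to 8.85% and 8 to 10.6% of the summed Pecam1 and Cdh5 CPM in the PBS, isotype and anti–IL-4Rα libraries. Icam2 was 3.40 to 3.93%, 3.07 to 4.64% and 3.46 to 4.03%. Ackr1 was 14.005 to 15.5%, 11.03 to 14.7% and 13.3 to 16.9%, so that 4 of 5 isotype libraries lay below all PBS libraries (log2 -0.24 in that fit, equal to the median of all genes, edgeR adjusted p = 0.129). Icam1 was 25.02 to 40.4%, 31.0 to 44.7% and 32.8 to 57.9%, overlapping in all 3 groups, and its call in anti–IL-4Rα against PBS was lost (log2 0.45, edgeR adjusted p = 0.288).

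**Figure D3:**
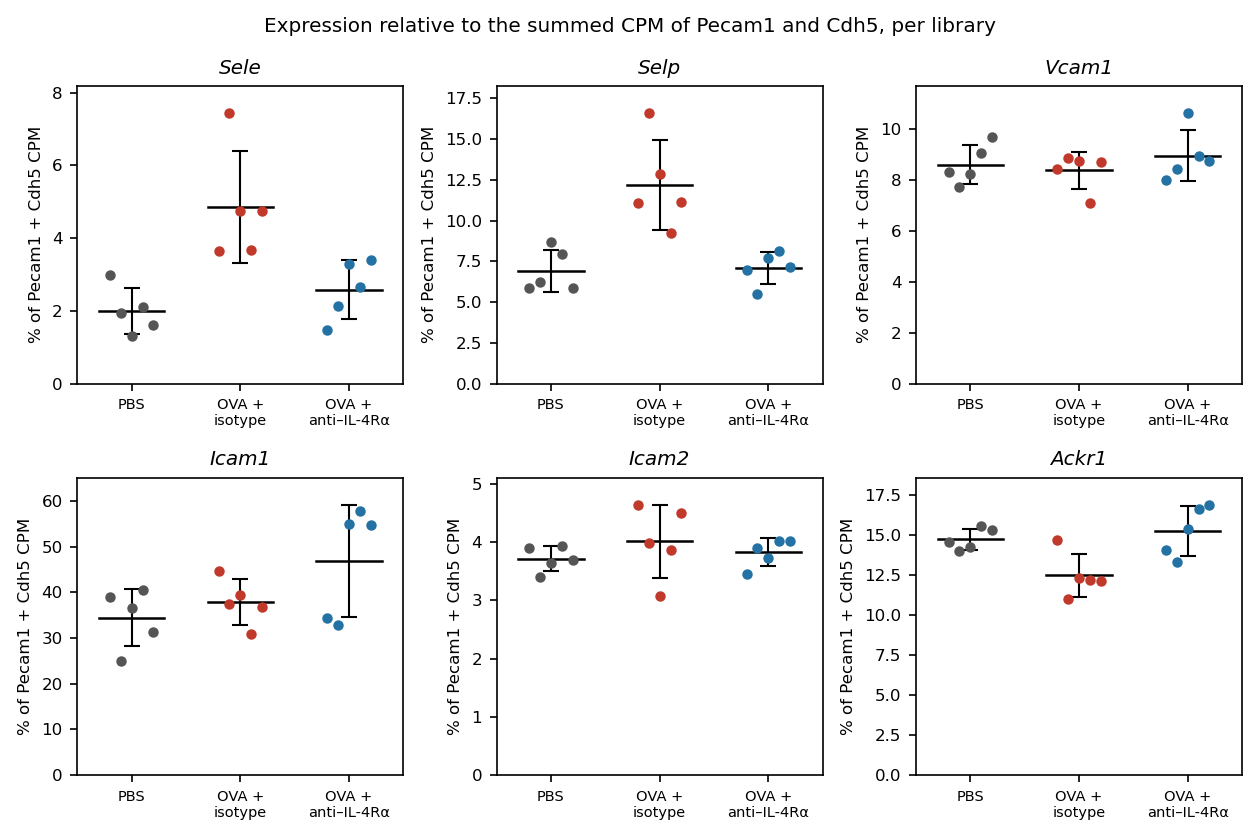
Each adhesion gene except Madcam1 as a percentage of the summed CPM of Pecam1 and Cdh5 (vertical axes, linear, from 0), by library and group, with means and SD (n = 5). Isotype libraries stand above the other groups for Sele (3.66 to 7.44%) and Selp (9.25 to 16.6%) and overlap them for Vcam1, Icam1, Icam2 and Ackr1.

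Compared per kilobase of exon, the set spans more than a 10-fold range within a group. In the PBS group Ackr1 (8.39 CPM per kb), Cdh5 (7.93) and Pecam1 (7.52) were the highest and did not differ beyond their spread. Icam1 (6.20) followed, and its libraries barely missed those of Pecam1, with a highest Icam1 value of 6.495 and a lowest Pecam1 value of 6.498. Icam2 (1.55) and Selp (1.24) came next and overlapped, and Vcam1 (0.774), Sele (0.541) and Madcam1 (0.535) were the lowest, each overlapping its neighbour. In the isotype group Selp (2.61 CPM per kb) ranked above Icam2 (1.98), and Sele (1.59) above Vcam1 (0.892), with neighbours overlapping in each case. With anti–IL-4Rα the order of the lower genes was that of the PBS group again: Icam2 (1.67), Selp (1.33), Vcam1 (0.839), Sele (0.729) and Madcam1 (0.518).

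The libraries differed in tissue make-up. Lacrimal acinar markers summed to 152 to 50042 CPM in the PBS, 185 to 31822 CPM in the isotype and 1275 to 149045 CPM in the anti–IL-4Rα libraries, and anti–IL-4Rα replicates 1, 4 and 5 held over 100000 CPM, with 2 of 10 of these markers called higher and 0 lower against isotype. Without these 3 libraries, a choice made after seeing the data that leaves 2 in the group, the anti–IL-4Rα to isotype difference was -1.02 for Selp (edgeR adjusted p = 0.168) and -0.98 for Sele (edgeR adjusted p = 0.253), about as large as with them, and the call was lost for both. Total counts were 48622246 to 87745024 per library. Of the 19006 genes tested, 1812 were called higher and 1423 lower in isotype against PBS, and 1280 higher in anti–IL-4Rα against isotype. Skeletal muscle markers (5 of 7 lower, 0 higher) and 1 of 7 fibroblast markers (Dcn, lower) also passed in isotype against PBS. Of 8 mural cell markers 1 rose (Rgs5) and 2 fell (Kcnj8 and Abcc9), and of 6 epithelial markers 1 rose (Krt14). Their part in the selectin changes was not tested.

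Platelets and their precursors also carry Selp transcripts, and leukocytes and macrophages carry Pecam1 and Icam1. Among all genes, 9.53% were called higher in isotype against PBS and 2.29% higher in anti–IL-4Rα against PBS. In anti–IL-4Rα against isotype 14.9% of all genes were called in either direction. Platelet and megakaryocyte markers summed to 24.9 to 30.8 CPM in the PBS, 27.1 to 54.8 CPM in the isotype and 30.7 to 36.7 CPM in the anti–IL-4Rα libraries. Of the 8, Gp9, Gp6 and Treml1 were at 0 to 12 counts in every library and were not tested, and Itga2b (log2 0.46 ± 0.08) and Pf4 (0.64 ± 0.19) were called higher in isotype against PBS. Group means of Pf4 were 11.9, 18.5 and 13.5 CPM in the PBS, isotype and anti–IL-4Rα groups, those of Ppbp 2.05, 5.87 and 1.88 CPM and those of Gp1ba 0.185, 0.404 and 0.244 CPM, each highest in the isotype group as Selp was, though Ppbp and Gp1ba did not pass in any comparison. Those of Gp1bb were 6.30, 5.37 and 6.03 CPM, and those of Itga2b were 7.49, 10.3 and 10.4 CPM, with Itga2b also called higher in anti–IL-4Rα against PBS (0.48 ± 0.08). None of the 5 was called in anti–IL-4Rα against isotype. Macrophage markers summed to 340 to 358 CPM in the PBS, 441 to 961 CPM in the isotype and 430 to 596 CPM in the anti–IL-4Rα libraries, and 6 of 8 were called higher in isotype against PBS, among them Mrc1 (1.42 ± 0.23) and C1qc (1.07 ± 0.16). With anti–IL-4Rα 3 of 8 stayed called higher against PBS (C1qa, C1qb and C1qc), and against isotype 1 was called lower (Mrc1, -1.01 ± 0.23) and 1 higher (Cx3cr1). Pan-leukocyte markers summed to 274 to 332, 318 to 588 and 280 to 475 CPM, with 5 of 6 called higher in isotype against PBS, among them Cd53 (1.28 ± 0.23) and Ptprc (1.05 ± 0.21), and none called in anti–IL-4Rα against isotype. The part of these cells in the Selp, Icam1 and Pecam1 differences was not tested.

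Partners of the adhesion molecules were read from lists chosen by name, and bulk tissue does not show which cells made their transcripts. For scale, 9.53% of all genes were called higher in isotype against PBS and 8.13% lower in anti–IL-4Rα against isotype. Among 10 genes of selectin ligands and their enzymes, 4 were called higher and 1 lower in isotype against PBS, with a list median of 0.39 on the log2 scale. Gcnt1, which builds the core-2 glycans that selectins bind, rose by 1.30 ± 0.19 against PBS, and Selplg, which encodes PSGL-1, by 1.03 ± 0.20. Spn, which encodes the sialomucin CD43, rose by 0.67 ± 0.20 and Cd44, the hyaluronan receptor, by 0.56 ± 0.15, while St3gal6, a sialyltransferase, stood at -0.42 ± 0.11. In anti–IL-4Rα against isotype 1 of 10 was called lower (Cd44, -0.50 ± 0.15, edgeR adjusted p = 0.0361) and 0 higher, with a list median of -0.20.

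Of 8 integrin genes tested, 5 were called higher and 0 lower in isotype against PBS, with a list median of 0.45: Itgal (0.97 ± 0.24) and Itgb2 (0.82 ± 0.19), the chains of LFA-1 that bind ICAM-1, Itga4 (0.80 ± 0.18) and Itgb1 (0.21 ± 0.06), the chains that bind VCAM-1, and Itga9 (0.37 ± 0.10). None was called in anti–IL-4Rα against isotype by edgeR at an adjusted p under 0.05 (list median -0.24). Itga4 stood at 5.43 to 7.03 CPM in the PBS, 7.76 to 13.2 CPM in the isotype and 7.68 to 15.9 CPM in the anti–IL-4Rα libraries, and both OVA groups lay above all PBS libraries (anti–IL-4Rα against PBS 0.84 ± 0.18, edgeR adjusted p = 0.0316).

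Among genes of high endothelial venules, Chst4 was the 1 of 6 called higher in isotype against PBS and the 1 of 6 called lower with anti–IL-4Rα against isotype. Chst4 encodes a sulfotransferase that modifies the glycans of these venules. It was at 0 to 3 counts in the PBS, 11 to 51 counts in the isotype and 0 to 11 counts in the anti–IL-4Rα libraries, and all isotype libraries held more CPM than any other. Against a floor of 3 counts in each PBS library it was at least 8.52-fold higher in the isotype group, a bound that was not itself tested. The edgeR test, made without that floor, gave an adjusted p of 0.000911 in isotype against PBS. For anti–IL-4Rα against isotype it gave -2.56 ± 0.48 (edgeR adjusted p = 0.00763). These are few counts, and the other 5 genes tested (Chst2, B3gnt3, Cd34, Podxl and Emcn) did not pass in either comparison, with list medians of 0.04 and -0.18. Glycam1, also on the list, was not tested. It held 6 to 61 counts in the PBS, 1 to 15 in the isotype and 0 to 9 in the anti–IL-4Rα libraries. Which cells of the tissue made Chst4 was not tested. Of 8 venule and endothelial activation genes, Plvap, the diaphragm protein of fenestrated capillaries and venules, was the 1 called higher (0.60 ± 0.10, edgeR adjusted p = 0.00292), at 61.1 to 80.4 CPM in the PBS and 83.3 to 129 CPM in the isotype libraries. It fell by 0.42 with anti–IL-4Rα against isotype (edgeR adjusted p = 0.0203), as did Ephb4, a venous receptor, by 0.21. Single calls in lists of 6 or 8 genes are not read as results about those lists. Of all genes, 9.53% were called higher in isotype against PBS and 8.13% lower in anti–IL-4Rα against isotype. Of 9 junctional genes, Cldn5 (-0.38 ± 0.11) and Cd99l2 (-0.21 ± 0.06) were lower in isotype against PBS and Cd99l2 was higher again with anti–IL-4Rα against isotype (0.21 ± 0.06). In these directions 1423 and 1280 of the 19006 genes tested were called.

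Of the cytokines that induce these molecules, 5 of 9 tested were called higher and 0 lower in isotype against PBS, with a list median of 1.15. They were Il6 (4.04 ± 0.57), Il1b (2.02 ± 0.39), Il4 (1.74 ± 0.43), Il13 (1.30 ± 0.27) and Tnf (1.15 ± 0.32). The isotype and PBS libraries overlapped for Il1b and Tnf. Among all genes, 9.53% were called higher in isotype against PBS and 8.13% lower in anti–IL-4Rα against isotype. Counts were low for Il6 (2 to 11 in the PBS and 21 to 159 in the isotype libraries) and Il4 (3 to 10 and 12 to 33). The sizes of these 2 changes are therefore loosely set. With anti–IL-4Rα against isotype Il6 (-2.29 ± 0.50) and Il1b (-1.81 ± 0.39) were called lower, and the other 7 were not called. Of 13 receptor and signaling genes 6 were called higher in isotype against PBS, among them Tnfrsf1b (0.85 ± 0.16), a TNF receptor, and Tnfaip3 (0.79 ± 0.21), an NF-κB feedback inhibitor, and 3 were called lower with anti–IL-4Rα against isotype. The largest of the latter was Il4ra itself, the gene of the antibody's target (0.74 ± 0.22 against PBS and -1.06 ± 0.22 against isotype). Neither list had a member called in anti–IL-4Rα against PBS, where 3.74% of all genes were called in either direction. The list medians there were 0.46 for the cytokines and 0.08 for the receptor and signaling genes. The cytokine differences ranged from -1.57 ± 0.90 (Il17a) to 1.75 ± 0.60 (Il6). The lack of a call therefore does not place these genes at the PBS level.

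**Figure D4:**
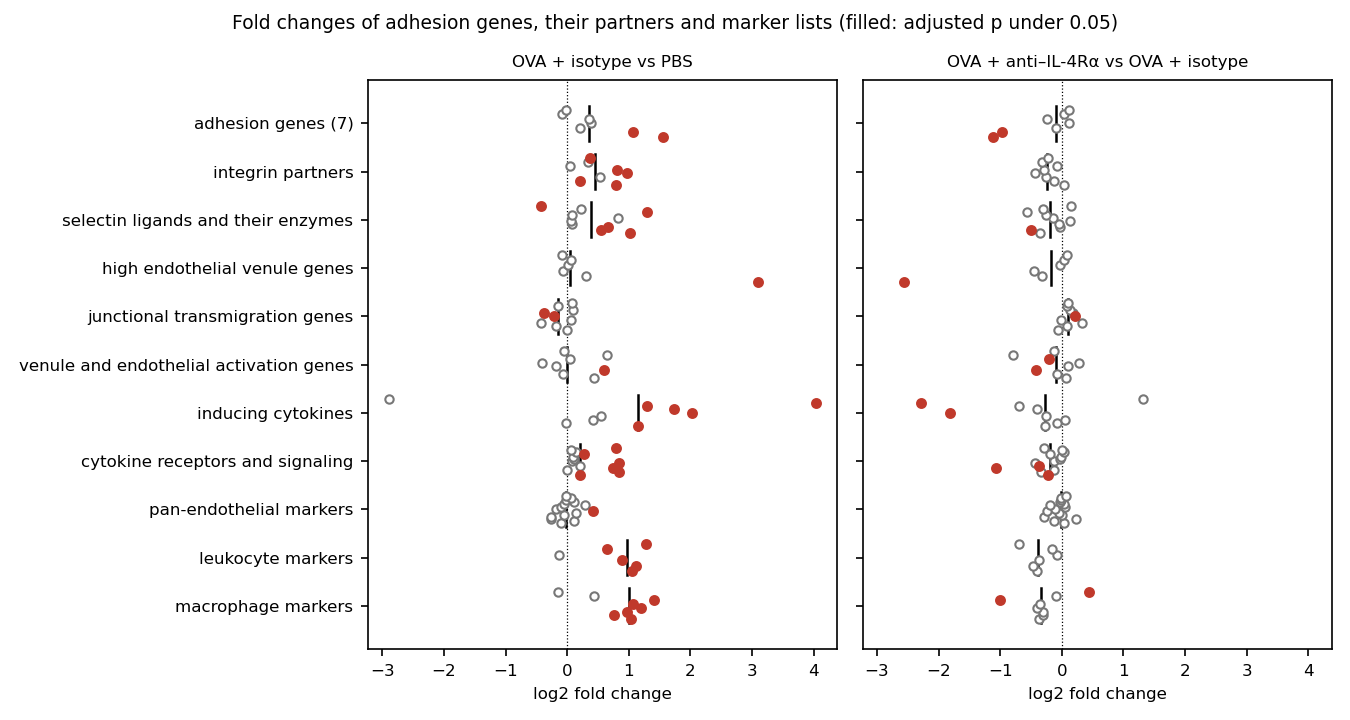
Log2 fold changes (horizontal axes) of each gene tested in the lists named at left, in isotype against PBS and in anti–IL-4Rα against isotype. Points are genes, filled where the adjusted p is under 0.05, and bars are list medians, -0.02 for the pan-endothelial markers in both panels and 0.35 and -0.09 for the adhesion genes, and Chst4 in the left panel stands at its lower bound of 3.09.

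The genes whose levels tracked each member most closely were read from Pearson correlations of log2 CPM, centered within groups, over the 15 libraries, as a description. Libraries share depth and tissue make-up, and the highest of so many correlations is high by selection. Icam1 was nearest to Nfkb2 (r = 0.915), Rhbdl3 (0.914) and Relb (0.906), of which Nfkb2 and Relb encode NF-κB subunits. Selp was nearest to Pmepa1 (0.916), S1pr3 (0.902) and Oaf (0.901), and Sele to Ubash3b (0.952), Atp8b2 (0.932) and Maf (0.931). Vcam1 was nearest to Esyt1 (0.930), Emilin2 (0.925) and B4galt5 (0.923), Icam2 to Insc (0.878), Meox1 (0.844) and Ccdc194 (0.838), Madcam1 to Uck1 (0.941), Klhdc3 (0.933) and Dcst1 (0.931), and Ackr1 to Clec3b (0.940), Pitx3 (0.910) and Aspn (0.909). No member was among the 3 nearest of another.

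How far these calls depend on single libraries differed by gene. The Sele and Selp calls in isotype against PBS held with each of the 15 libraries left out in turn (edgeR adjusted p from 0.00104 to 0.0129 and from 0.000531 to 0.00845), and Selp held in anti–IL-4Rα against isotype (0.00196 to 0.0211). Sele in anti–IL-4Rα against isotype was lost without isotype replicate 2 (-0.92, edgeR adjusted p = 0.0544), isotype replicate 3 (-1.12, 0.0507) or anti–IL-4Rα replicate 1 (-0.99, 0.0523). Icam1 and Icam2 were both called in isotype against PBS without isotype replicate 1 (0.42 and 0.38, edgeR adjusted p = 0.0495 and 0.0409), which gives 4 of 7 adhesion genes. Icam1 was also called there without isotype replicate 4 (0.0339) or anti–IL-4Rα replicate 1, 2 or 3 (0.0439, 0.0301 and 0.0430), and Icam2 without isotype replicate 3 (0.0370). Icam1 in anti–IL-4Rα against PBS held in 6 of 15 such fits and was lost without any 1 of the PBS libraries, isotype replicate 3 or anti–IL-4Rα replicate 1, 4 or 5 (edgeR adjusted p up to 0.112). Pecam1 in isotype against PBS held in 4 of 15, when the library left out was isotype replicate 1, anti–IL-4Rα replicate 1 or 5, or PBS replicate 2, and reached an adjusted p of 0.105 in edgeR in the others. Without isotype replicate 1 Pecam1 was also called lower with anti–IL-4Rα against isotype (-0.35, edgeR adjusted p = 0.0156).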

How the data were processed

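Values came from a deposited table of estimated counts per gene, which the authors made by mapping read pairs and assigning them to genes, with no scaling. The authors trimmed adaptors, filtered reads at a Q score of 20, mapped read pairs uniquely to mouse B38 with the Ensembl release 100 gene model in Omicsoft Array Studio. The counting method, tool version and use of strand are not given in the sources used here. The methods state that 2 outliers were found, without naming the libraries, and all 15 libraries were used. Fractional values occurred for 6222 to 8005 genes, depending on the library, and were rounded before testing. Total counts were 48622246 to 87745024 per library.

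Groups and replicate numbers came from the labels. Nothing there says more than that these are separate samples, so p-values measure the spread between samples. The filter asked for 10 counts or more in 5 or more libraries and kept 19006 genes. After TMM scaling, 1 model over the 3 groups was run by edgeR (version 4.0.16, R 4.3.3) with its two-sided quasi-likelihood test, with Benjamini-Hochberg adjustment over all genes tested and calls at an adjusted p under 0.05. The study's methods fitted a linear model to log2(FPKM + 1), which was tried as an alternative. SE is that of the log2 fold change, and CPM uses TMM-scaled totals. Intervals are 95%. The code was tested on simulated data. Exon lengths and positions came from GENCODE M21 (GRCm38), an older release than the authors', and promoters from RefSeq GRCm38.p6. No genome sequence beyond the promoter windows and no protein sequence was used.

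Members and the 7 pathway and 11 marker lists were chosen with earlier results of these data known, and 1 gene of the list of selectin ligands is not reported here, so that list's counts and medians are over the remaining 10 genes and not over the list as first chosen. Genes named were all members, up to 4 called genes with the largest change per list and comparison, and the 3 nearest genes of each adhesion gene. Levels per library of Chst4, Plvap and Itga4, and genes outside that rule, were chosen after their values were seen. Alternatives were other normalizations, tests, filters and references (DESeq2 1.42.0, limma 3.58.1), a replicate block, and leaving out libraries.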

Additional observations from a re-analysis of the deposited data

Results flagged for a closer look

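Ackr1 in anti–IL-4Rα replicate 2 lay apart from the rest of its group, at 11.7 CPM against 12.7 to 13.04 CPM in the other 4 libraries. Its gap to the nearest library was 0.751 of the group's range. Of 27 sets of 5 libraries examined (9 genes in 3 groups) it was the only one to stand apart in this way, and chance alone sets apart about 1 in 20. The value lies within the range of the PBS libraries and touches no call.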

How the results depend on the processing

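Sele and Selp in isotype against PBS passed in all 13 alternatives. The 2 adhesion genes called there became 4 (with Icam1 and Icam2) in DESeq2 and in limma voom, 3 (with Icam1) when only the 2 groups were fitted and with the lacrimal score as a covariate, and 2 to 4 with 1 library left out. In anti–IL-4Rα against isotype the 2 became 1 when only the 2 groups were fitted, with the lacrimal score as a covariate and relative to either endothelial reference, 0 without the 3 libraries high in lacrimal markers (2 libraries remain in the group), and 1 to 2 with 1 library left out. In anti–IL-4Rα against PBS the 1 became 0 in 10 of 13 alternatives (all but DESeq2, limma voom and filterByExpr) and 0 to 1 with 1 library left out. The 1 endothelial content gene called in isotype against PBS became 0 with upper quartile factors, both linear models on log2 values, no filter, 2 groups only and the lacrimal-high libraries left out, and 0 to 1 with 1 library left out, and the 0 called in anti–IL-4Rα against isotype became 1 in limma voom and 0 to 1 with 1 library left out. On log2(FPKM + 1) Sele in isotype against PBS was 0.72. Genes called among all ranged over the 13 alternatives from 1553 to 4517 (3235 as reported), 44 to 4045 (2826) and 19 to 2318 (711) in the 3 comparisons, and with 1 library left out from 1863 to 3937, 882 to 4206 and 82 to 2029. The cause of these changes was not tested.

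Correlations between the deviations of same-numbered libraries ranged from -0.38 to 0.45, with 4 of 15 above 0.1. The labels name no pairing, and the main fit used none. Libraries also differed in tissue make-up, so this check cannot decide whether the numbers mark a shared source of spread. With the number as a replicate block 2, 2 and 0 adhesion genes and 0 endothelial content genes were called in the 3 comparisons.

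Signs turned only for genes that were not called. Vcam1 became -0.038 in isotype against PBS and 0.096 in anti–IL-4Rα against isotype relative to Pecam1 and Cdh5, and 0.054 in the latter without the lacrimal-high libraries. Ackr1 became 0.052 in isotype against PBS in limma voom and ranged from -0.069 to 0.047 with 1 library left out. Cdh5 became 0.032 in anti–IL-4Rα against isotype without the lacrimal-high libraries and ranged from -0.11 to 0.029 with 1 library left out. Madcam1, at 17 to 74 counts, ranged with 1 library left out from -0.43 to 0.20 in isotype against PBS, -0.18 to 0.38 in anti–IL-4Rα against isotype and -0.25 to 0.23 in anti–IL-4Rα against PBS, and in anti–IL-4Rα against isotype became -0.052 with the lacrimal covariate and -0.034 without the lacrimal-high libraries.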
